A study of Homo sapiens with 12 samples.

Results

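The response to lowered DLK1 was read from 4 libraries of H295R cells in which DLK1 was knocked down (KD), set against 4 libraries of the unmodified cells (WT). H295R is an established human adrenocortical carcinoma line that makes steroid hormones. These 8 libraries of the 12 in the series were taken by their labels, and all 60670 genes with an Ensembl identifier and counts were kept. The other 4 libraries came from H295R cells that over-express DLK1 (OE), and they entered the same fit so that all 3 groups shared an estimate of the spread. No drug, second allele or time course is named for any of the groups, and all of them were harvested as growing cultures for total RNA and strand-specific paired-end sequencing. The sources used here do not give the knock-down construct, whether KD cells were a clone or a pool, or whether the 4 libraries of a group came from separate cultures. The p-values therefore measure the spread between these libraries, which may be technical.

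DLK1 encodes a membrane protein with EGF-like repeats that resembles the Notch ligands, and its outer part can be shed from the cell. The gene is imprinted and read from the paternal copy, beside the maternally read non-coding gene MEG3. Its best known role is to hold back the maturation of precursor cells, studied most in fat cell precursors of the mouse. In rat and mouse adrenals it marks cells near the capsule that renew the cortex, and the human gene is expressed in many adrenocortical tumours.

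Library totals ran from 11597523 to 13058210 counts in KD and from 9303266 to 12164240 in WT, and 22032 to 23053 genes were detected in a library. The filter on low counts left 15916 genes to test. KD replicate 3 stood apart from the other KD libraries: its counts differed from theirs by a chi-square of 6.19 to 11.1 per degree of freedom, against 3.82 to 4.24 among the other KD libraries and 2.72 to 3.55 among WT libraries. The share of counts on the mitochondrial genome was 4.99% in KD replicate 3, 6.65% to 7.49% in the other KD libraries and 7.72% to 8.37% in WT. Of 11 adrenocortical markers tested 1 rose and 5 fell in KD (54.5% called, against 9.06% of all genes tested), with summed levels of 1950.2 to 2148 CPM in KD and 2387 to 2509.7 CPM in WT, with no overlap. STAR and SOAT1, 2 of those that fell, lie in runs of shifted neighbouring genes described below, and both add to the difference in the sums. Of the 9 markers outside such runs 1 rose and 3 fell, with a median log2 fold change of -0.095. Among the 11 markers the adrenocortical factor NR5A1 (SF-1) was not called, at 533 ± 49.5 CPM in KD and 551 ± 23.8 CPM in WT (SD, n = 4 each). Of 7 fibroblast markers 2 were tested, with summed levels of 15.3 to 22.4 CPM in KD and 16.9 to 20.9 CPM in WT. Of 7 immune markers only CD14 was tested (0.53 to 1.29 CPM in KD, 0.568 to 1.51 CPM in WT), of 7 chromaffin markers only CHGA (2.77 to 4.56 CPM in KD, 2.10 to 4.26 CPM in WT), and of 7 endothelial markers 0. None of these 4 tested markers was called by edgeR (1 had an unadjusted p under 0.05) or by DESeq2. In bulk RNA, fewer cells of a type and less RNA per cell cannot be told apart.

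The targeted gene was lower in every KD library. DLK1 (ENSG00000185559, GRCh38 chr14:100725705-100738224) had 1487, 1263, 1238 and 1364 CPM in KD, against 2796, 2735, 2679 and 2490.3 CPM in WT. The KD libraries lay far below all WT libraries, and the fitted log2 fold change was -0.999 ± 0.05 (SE, 4 libraries a group, as for every fold change given with ± below), with an edgeR quasi-likelihood adjusted p of 4.07e-09. In OE cells DLK1 averaged 3213 CPM, 0.26 ± 0.05 above WT on the log2 scale (edgeR adjusted p = 0.00693). MEG3, its imprinted neighbour, averaged 1219.5 ± 226 CPM in KD and 1196 ± 88.1 CPM in WT (SD, n = 4 each), a difference that missed the threshold (log2 fold change 0.03 ± 0.12, edgeR adjusted p = 0.936).

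Across the transcriptome many genes changed by small amounts and few by large ones. The edgeR test called 1442 of 15916 genes at an adjusted p under 0.05, 9.06% of those tested. Of these, 611 rose in KD (3.84% of genes tested) and 831 fell (5.22%). The share of calls that rose was 42.4% with TMM scaling and 60.8% (967 rose, 624 fell) when counts were scaled by library sizes alone, so the balance of the directions depends on the scaling, while the median log2 fold change of all genes was 0.005. A change under 1.2-fold was called in 565 genes, one of 1.2-fold to 1.5-fold in 640, one of 1.5-fold to 2-fold in 155 and one of at least 2-fold in 82, 38 of them higher and 44 lower. Leaving out 1 library at a time, the calls ran from 407 higher (without WT replicate 6) to 725 higher, and from 614 to 832 lower. Without KD replicate 3 they were 482 higher and 754 lower. All 4 KD libraries lay above all 4 WT libraries in 945 genes (5.94% of genes tested) and below them in 1092 (6.86%). Protein-coding genes held 591 of the calls that rose and 790 of those that fell, among 13018 tested. Of 1788 long non-coding RNAs 11 rose and 18 fell, and of 856 pseudogenes 6 rose and 18 fell.

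**Figure D1:**
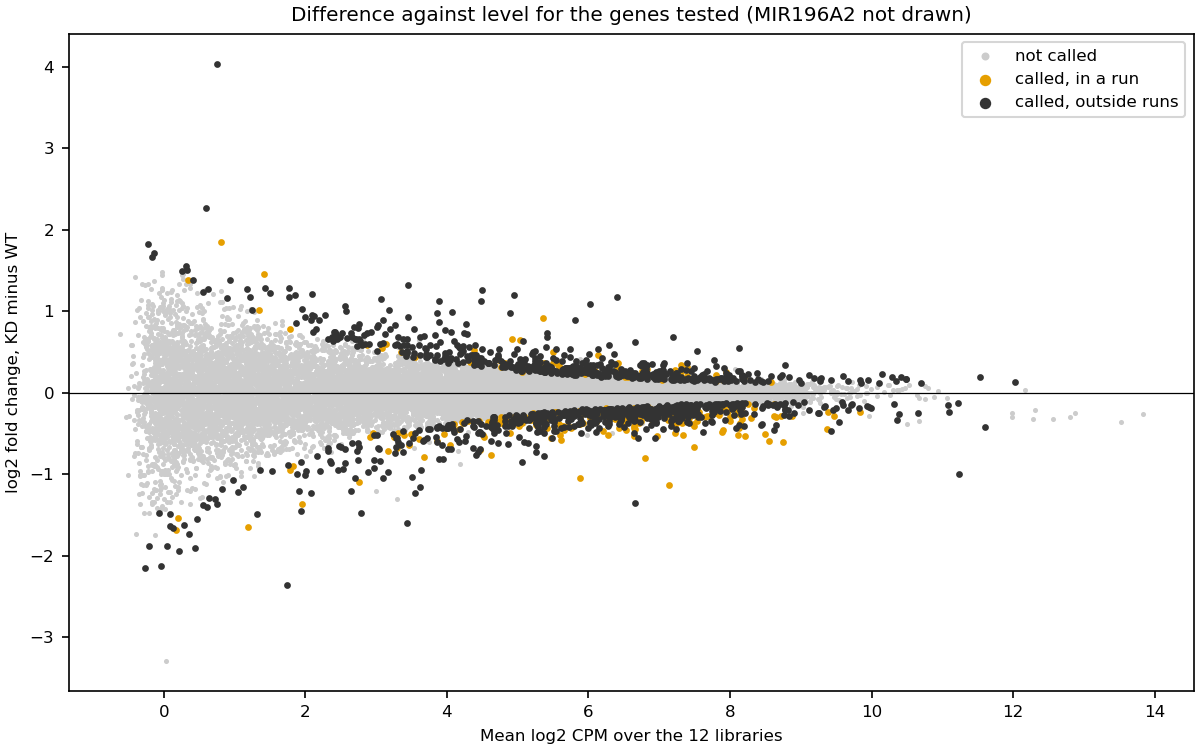
Log2 fold change of KD against WT (y axis) over the mean log2 CPM (x axis) for each gene tested. Called genes are black outside runs of shifted neighbouring genes and orange inside them, and genes that were not called are grey; MIR196A2 lies far above the axis and is not drawn. Most called genes lie within 1 log2 unit of 0, DLK1 is the abundant gene at -0.999, and the largest changes are at low levels.

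The gene with the largest fold change had counts in KD alone. MIR196A2 (GRCh38 chr12:53991738-53991847), the gene of the microRNA miR-196a on the plus strand inside the HOXC cluster, had 2167, 1616, 1795 and 1724 counts in KD, against 0 counts in each WT and each OE library. Against a floor of 3 counts over the WT group this was at least 2128-fold higher in KD. The neighbours HOXC10, HOXC9, HOXC8, HOXC6 and HOXC4 and the second copy of the same microRNA, MIR196A1 (10, 12, 9 and 11 counts in KD, 10, 11, 8 and 17 counts in WT), were not called. These counts are reads over the gene, and the mature microRNA was not measured separately. The knock-down construct is not given, and transcripts of the cells' own locus and of an introduced construct with the same sequence cannot be told apart in a table of counts. Its sequences in RefSeq (GRCh38.p14) are shown because this gene had the largest fold change of all genes tested; capitals mark the seed (bases 2 to 8) in the mature forms and the 2 mature arms in the hairpin.
hsa-miR-196a-5p: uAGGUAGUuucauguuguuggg
hsa-miR-196a-3p: cGGCAACAagaaacugccugag
MIR196A2 hairpin: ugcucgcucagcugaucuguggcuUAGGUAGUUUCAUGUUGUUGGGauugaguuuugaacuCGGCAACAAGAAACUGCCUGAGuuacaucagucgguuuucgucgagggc

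The plot of levels by library shows the targeted gene beside 9 others that stand for matrix, steroid, signalling, channel, lipid, amino acid and adhesion genes.

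**Figure D2:**
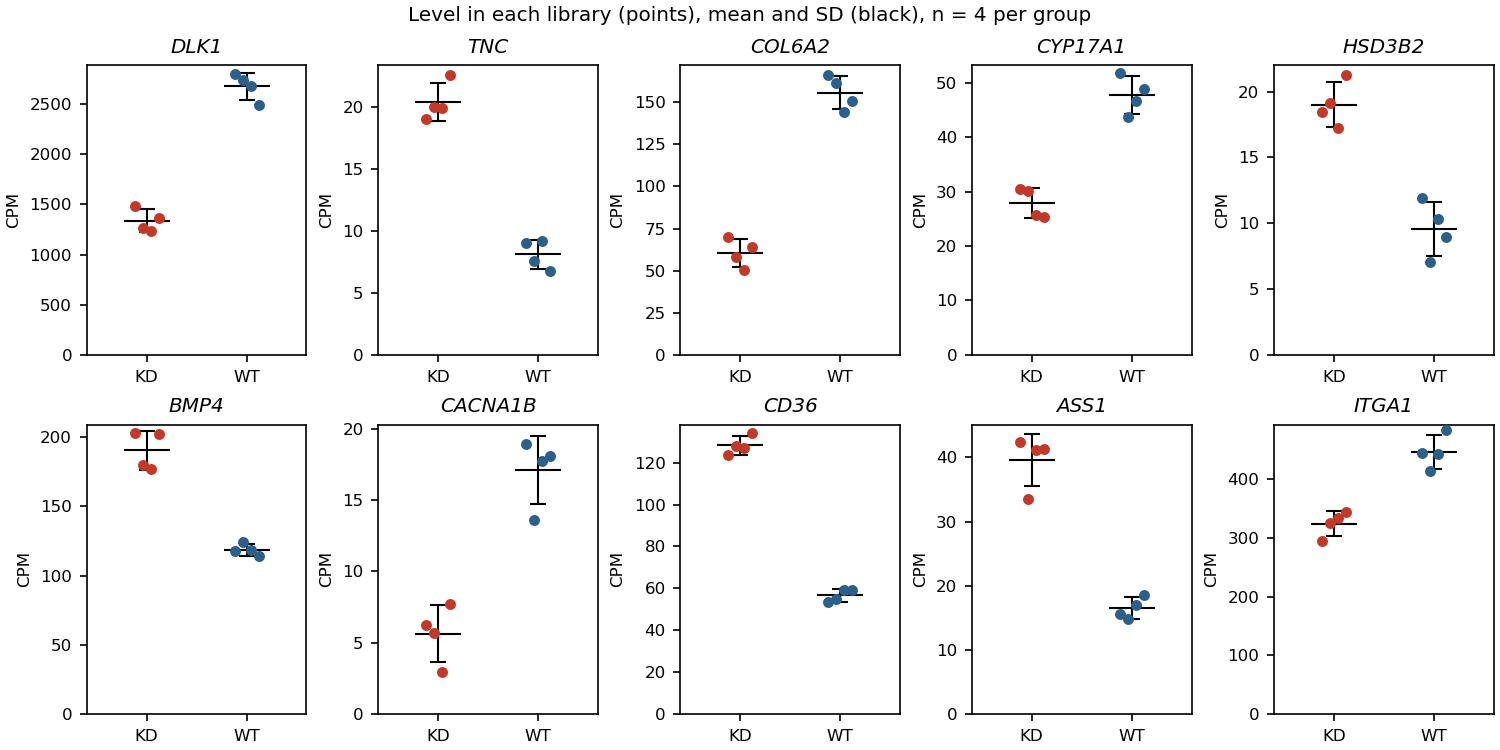
CPM of 10 genes in each library, KD left and WT right in every panel; points are libraries, and the bar and whiskers are the mean and SD of 4 libraries. DLK1, COL6A2, CYP17A1, CACNA1B and ITGA1 lie lower in all 4 KD libraries, and TNC, HSD3B2, BMP4, CD36 and ASS1 lie higher in all 4.

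Part of the response followed position on the chromosomes. Ordering the tested genes whose mean log2 CPM reached 0 along each chromosome and taking the median log2 fold change over 31 genes gave 9 runs in which that median passed 0.15 in size. The runs held 946 genes, of which 63 rose and 220 fell in KD (29.9% called), and 283 of all 1442 calls lay in them. They held 26.5% of all genes that fell and 10.3% of those that rose. Outside them, 548 of 14970 genes rose and 611 fell (7.74% called), and 34 rose and 37 fell by at least 2-fold. The runs were picked by these same fold changes. A higher share of calls inside them, mostly in the direction of the run, therefore follows from the rule and is not separate evidence for the runs. The shares called were highest on chromosomes 5 (19.5%), 20 (17.9%) and 8 (16.5%).

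The 4 longest lower runs lay on 1q, both arms of chromosome 5, and chromosome 8. On chr8:232137-56957933 the median log2 fold change was -0.229, and 66 of 214 genes fell while 2 rose. The 4 KD libraries were alike there, with medians of -0.25, -0.25, -0.23 and -0.21 relative to the WT mean, and OE libraries had -0.15 to -0.19. On chr5:72955981-139274102 the median was -0.217, with 85 of 260 genes lower and 3 higher. On chr1:164555584-185157080 the median was -0.199, with 35 of 101 genes lower and 1 higher. On chr5:6633343-43065176 it was -0.145, with 24 of 92 genes lower and 1 higher. The largest higher run, chr20:270863-29080390, had a median of 0.190, with 43 of 135 genes higher and 4 lower, and its medians in the KD libraries were 0.17, 0.18, 0.19 and 0.19 against 0.08 to 0.10 in OE libraries. These 5 runs appeared at least in part under all 19 settings tried. A run counted as found where any of its genes lay in a run of the same direction. With a median threshold of 0.20, 44.6% of the genes of the run at chr5:6633343-43065176 were found again. For the chromosome 8 run the share was 73.4%, and both were the lowest for these runs. The other 4 were short and less stable: chr1:825138-2050470 (5 of 45 genes higher), chr2:201387858-207580631 (6 of 32 lower), chr17:81556887-82078333 (3 of 31 higher) and chr22:20129456-21754500 (5 of 36 higher) were found in 18, 14, 13 and 11 of the 19 settings. The number of runs depended on single libraries: leaving out KD replicate 4 gave 15, KD replicate 5 gave 23 with 1596 genes, WT replicate 3 gave 14 and WT replicate 4 gave 19. DNA copy number was not measured, and whether it moves with the runs was not tested.

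**Figure D3:**
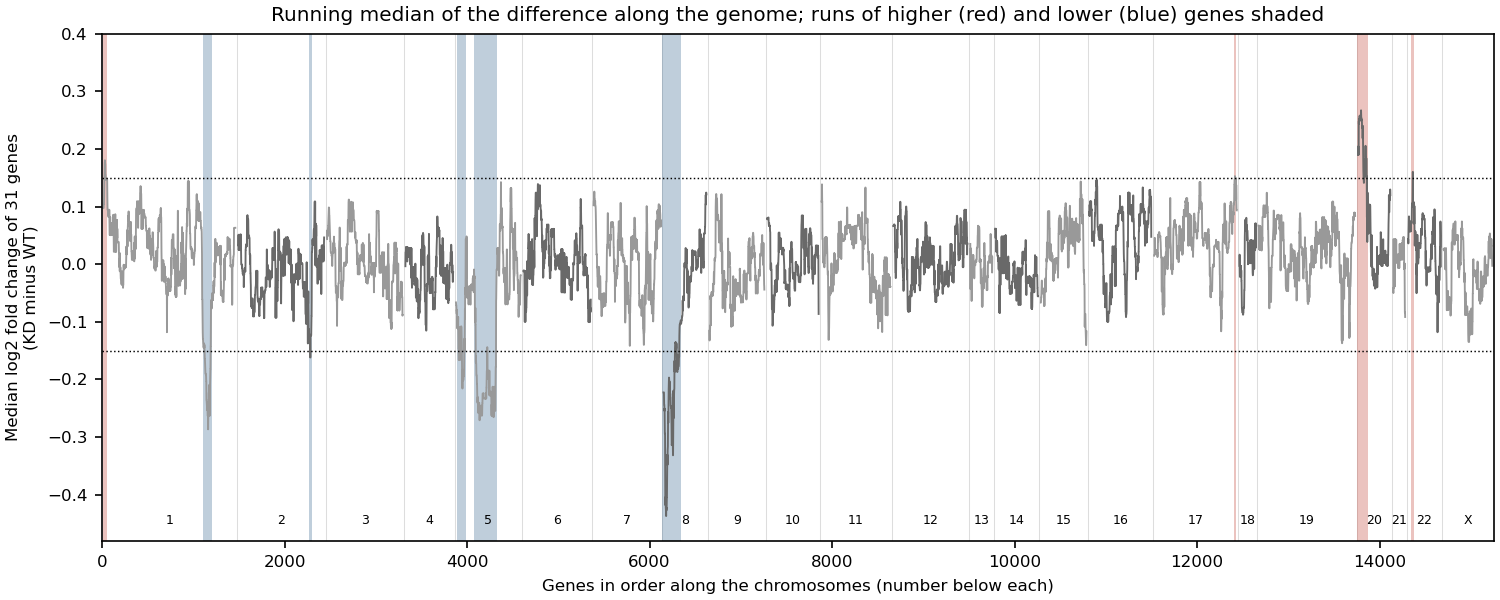
Running median over 31 genes of the log2 fold change of KD against WT (y axis) along the numbered chromosomes (x axis), with dotted lines at 0.15 above and below 0. Shading marks the 9 runs, red for higher and blue for lower; the long blue stretches on chromosomes 1, 5 and 8 and the red one on chromosome 20 hold most of the genes in runs.

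Some genes inside runs moved well beyond their neighbours. A distance of over 0.26 (log2) from the run's median was found for 23 called genes of the chromosome 8 run, 16 of the longer chromosome 5 run, 14 of the chromosome 20 run, 6 of the 5p run and 5 of the 1q run. STAR, which carries cholesterol into mitochondria for the first step of steroid synthesis, had 374, 332, 309.8 and 346 CPM in KD, against 535, 528, 509.7 and 506 CPM in WT (log2 fold change -0.61 ± 0.04, edgeR adjusted p = 4.71e-15). All KD libraries lay below all WT libraries, and the fold change lay -0.38 from the median of its run. SFRP1, a secreted inhibitor of Wnt proteins, had 47.8, 49.1, 42.4 and 48.8 CPM in KD, against 98.2, 94.9, 103 and 92.8 CPM in WT (log2 fold change -1.05 ± 0.07, edgeR adjusted p = 2.29e-16). In OE cells SFRP1 was lower still, at 32.96 CPM. FBN2, the microfibril protein fibrillin 2, had 84.4, 90.4, 75.9 and 83.2 CPM in KD, against 166, 159, 202 and 209 CPM in WT (log2 fold change -1.14 ± 0.09, edgeR adjusted p = 4.12e-07). WT replicates 5 and 6 held more than WT replicates 3 and 4, and every KD library lay below all of them. The lysosomal protease gene CTSB averaged 86.9 ± 7.22 CPM in KD and 151 ± 8.35 CPM in WT (SD, n = 4 each; log2 fold change -0.80 ± 0.06, edgeR adjusted p = 2.14e-15). LAMC1, the gamma chain of most laminins, averaged 312 ± 12.9 CPM in KD and 470.2 ± 27.6 CPM in WT (SD, n = 4 each; log2 fold change -0.59 ± 0.04, edgeR adjusted p = 2.14e-15). LPL, lipoprotein lipase, averaged 2.44 CPM in KD and 6.28 CPM in WT (log2 fold change -1.37 ± 0.25, edgeR adjusted p = 9.29e-05). 

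In the chromosome 20 run CHGB, the secretory granule protein chromogranin B, rose most clearly. It had 63.9, 52.9, 61.9 and 54.8 CPM in KD, against 31.03, 33.00, 29.9 and 29.8 CPM in WT (log2 fold change 0.92 ± 0.08, edgeR adjusted p = 2.19e-12). The KD libraries did not overlap the WT libraries, and the OE mean of 32.6 CPM lay with WT. TRIB3, a pseudokinase induced in amino acid stress, averaged 38.3 ± 4.21 CPM in KD and 24.5 ± 1.73 CPM in WT (SD, n = 4 each; log2 fold change 0.65 ± 0.09, edgeR adjusted p = 1.33e-06). ACSS1, a mitochondrial acetyl-CoA synthetase in the same run, went against its neighbours: it had 128, 123, 115 and 130.4 CPM in KD, against 190.1, 212, 191 and 196 CPM in WT (log2 fold change -0.67 ± 0.05, edgeR adjusted p = 2.14e-15). Each KD library lay below each WT library.

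Outside the runs, the genes with the largest changes included matrix, lipid, amino acid and channel genes. TNC (tenascin C, a matrix protein of developing and healing tissue) had 19.02, 20.03, 19.9 and 22.6 CPM in KD, against 8.99, 7.56, 9.21 and 6.75 CPM in WT (log2 fold change 1.32 ± 0.15, edgeR adjusted p = 1.84e-09). The KD libraries were close to each other and all above WT. CD36, a receptor for fatty acids and lipoproteins, had 124, 128, 127 and 134 CPM in KD, against 53.5, 54.7, 59.00 and 59.4 CPM in WT (log2 fold change 1.18 ± 0.06, edgeR adjusted p = 7.25e-21), and the groups were far apart. ASS1, argininosuccinate synthase of the arginine pathway, had 42.4, 33.5, 41.1 and 41.4 CPM in KD, against 15.6, 14.8, 17.1 and 18.6 CPM in WT (log2 fold change 1.26 ± 0.11, edgeR adjusted p = 2.57e-13). ASS1 has many processed pseudogenes, so its counts are less certain. CTSZ, a lysosomal protease, averaged 97.1 ± 5.13 CPM in KD and 45.9 ± 2.54 CPM in WT (SD, n = 4 each; log2 fold change 1.08 ± 0.07, edgeR adjusted p = 5.33e-18). The enzyme FUT1, which adds fucose to make the H antigen, had low levels and a large fold: 2.73, 2.51, 2.32 and 1.63 CPM in KD, against 0, 0.765, 0.837 and 0.218 CPM in WT (log2 fold change 2.27 ± 0.49, edgeR adjusted p = 0.00084). 

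Among the largest falls outside runs, ELOVL2, which lengthens polyunsaturated fatty acids, had 1.06, 1.17, 1.28 and 1.202 CPM in KD, against 5.11, 5.64, 7.45 and 6.20 CPM in WT (log2 fold change -2.36 ± 0.28, edgeR adjusted p = 6.44e-09). The KD libraries lay close together and far below all WT libraries. CACNA1B, the pore of the N-type calcium channel, had 6.21, 5.70, 2.96 and 7.72 CPM in KD, against 18.9, 13.6, 17.7 and 18.1 CPM in WT (log2 fold change -1.60 ± 0.19, edgeR adjusted p = 1.93e-07). GRB10, an imprinted adaptor that restrains insulin and IGF receptors, had 4.55, 4.95, 4.32 and 4.63 CPM in KD, against 14.3, 12.1, 13.5 and 11.6 CPM in WT (log2 fold change -1.48 ± 0.17, edgeR adjusted p = 4.65e-09). For both genes every KD library lay below every WT library, and KD replicate 5 was the lowest. CCK (cholecystokinin) averaged 0.730 CPM in KD and 2.76 CPM in WT (log2 fold change -1.91 ± 0.44, edgeR adjusted p = 0.00239), and EGLN3, an oxygen-sensing prolyl hydroxylase, 1.43 CPM in KD and 4.05 CPM in WT (log2 fold change -1.49 ± 0.36, edgeR adjusted p = 0.00442). RGPD5, one of a family of near-identical genes whose counts are uncertain, averaged 2.03 CPM in KD and 5.56 CPM in WT (log2 fold change -1.45 ± 0.29, edgeR adjusted p = 0.000412). By absolute level the largest rises outside runs, beside MIR196A2, were in PKM, EEF1A1, RPL4, EEF2, TUBB, HSP90AB1 and SCD, all by small folds, and the largest falls after DLK1 were in MT-RNR2, SPARC, MT-RNR1, TFRC, PEG10, MT-ND3 and HSPD1. The call of MT-ND3 was lost without any single library but KD replicate 5, and that of MT-RNR2 without KD replicate 6 or WT replicate 3, 5 or 6 (edgeR adjusted p up to 0.122 and 0.0836).

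Gene classes were read by counting called members, beside 3.84% higher and 5.22% lower over all genes tested, and no set test was run. Where 0 members were called in a direction by edgeR, the number with an unadjusted p under 0.05 and the number called by DESeq2 are given too. Many counts of 4 or fewer moved by more than 1.5 times when some single library was left out. 

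**Figure D4:**
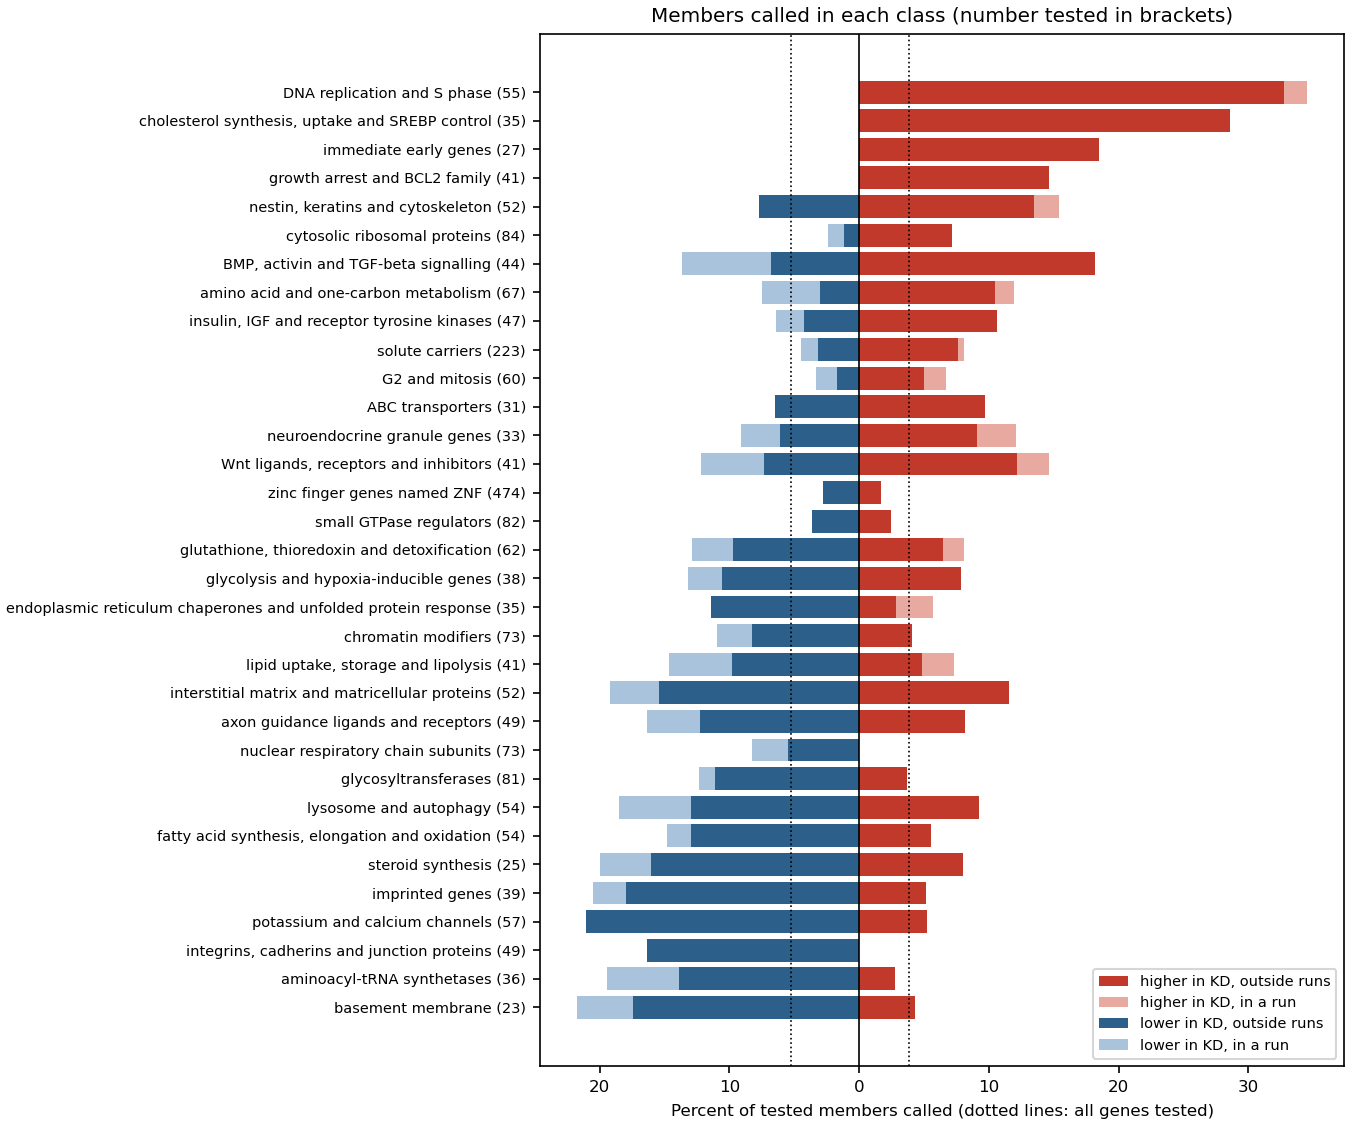
Percent of tested members called in KD against WT for each gene class, lower to the left and higher to the right of 0, with dotted lines at the percent called over all genes tested. Dark parts of a bar are members outside runs and light parts members inside runs; replication genes and cholesterol genes have bars to the right alone, and integrins and cadherins a bar to the left alone.

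Replication genes that were called all rose, by small steps. Of 55 tested, 19 rose and 0 fell (34.5% against 3.84% and 5.22% of all genes), 18 of the 19 lay outside runs, and the class median was 0.129 (0.005 over all genes). A lower value with an unadjusted p under 0.05 was found for 1 gene, and DESeq2 called 0 lower. MCM5, a subunit of the helicase that opens DNA, had 177, 160.2, 164 and 166 CPM in KD, against 146, 141, 135 and 141 CPM in WT (log2 fold change 0.24 ± 0.05, edgeR adjusted p = 0.000428). E2F1, the factor that switches on S phase genes, had 101, 85.8, 84.7 and 92.5 CPM in KD, against 65.6, 74.2, 73.8 and 72.1 CPM in WT (log2 fold change 0.35 ± 0.07, edgeR adjusted p = 0.000142). The groups did not overlap for either gene, and the steps were small. RFC3, of the clamp loader, averaged 149.7 ± 8.48 CPM in KD and 125 ± 3.69 CPM in WT (SD, n = 4 each; log2 fold change 0.26 ± 0.05, edgeR adjusted p = 0.000484), and PCNA, the sliding clamp, which lies in the chromosome 20 run, 269 ± 15.2 CPM in KD and 226 ± 5.53 CPM in WT (SD, n = 4 each; log2 fold change 0.25 ± 0.04, edgeR adjusted p = 4.57e-05). ORC6 of the origin complex, the loader CDC6, the helicase components CDC45 and MCM2 and the flap nuclease FEN1 rose by 0.32, 0.22, 0.31, 0.24 and 0.24 on the log2 scale. Without WT replicate 6 the count was 12, and without KD replicate 3 it was 14. Of 60 G2 and mitosis genes 4 rose and 2 fell, and 11 rose with library sizes alone; 7 rose without KD replicate 5 and 2 without KD replicate 6 or WT replicate 5. FOXM1, the factor that drives mitotic genes, averaged 313 ± 23.2 CPM in KD and 261 ± 5.70 CPM in WT (SD, n = 4 each; log2 fold change 0.26 ± 0.05, edgeR adjusted p = 3.23e-05), and HMMR, a spindle protein, 82.9 ± 6.04 CPM in KD and 67.2 ± 2.35 CPM in WT (SD, n = 4 each; log2 fold change 0.30 ± 0.07, edgeR adjusted p = 0.000875). 

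Promoters of RFC3 and PCNA are shown because both hold the motif GCGGGAA, a form of the site bound by E2F factors, once in the window from 250 bases before to 50 after the RefSeq start (GRCh38.p14, written in the direction of the gene, motif in capitals). RFC3 lies on the plus strand at chr13:33817899-33818198 and PCNA on the minus strand at chr20:5126573-5126872.
RFC3 promoter: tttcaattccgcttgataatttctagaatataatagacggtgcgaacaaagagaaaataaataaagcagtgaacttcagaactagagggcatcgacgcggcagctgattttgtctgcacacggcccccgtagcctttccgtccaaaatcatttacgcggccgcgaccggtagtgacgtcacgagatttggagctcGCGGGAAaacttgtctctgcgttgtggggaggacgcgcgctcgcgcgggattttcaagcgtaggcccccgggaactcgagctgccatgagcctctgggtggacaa
PCNA promoter: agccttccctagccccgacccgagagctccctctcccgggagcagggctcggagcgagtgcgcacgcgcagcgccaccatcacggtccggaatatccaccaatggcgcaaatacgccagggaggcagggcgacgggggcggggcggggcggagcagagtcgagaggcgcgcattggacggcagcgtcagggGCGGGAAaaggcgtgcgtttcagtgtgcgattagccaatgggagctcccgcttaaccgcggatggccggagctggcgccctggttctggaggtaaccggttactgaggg
On either strand the motif occurred in 18 of 46 replication gene promoters (39.1%), in 6 of the 17 of called members, and in 10.2% of the promoters of all genes tested and 6.57% of all promoters. A match is a description of these letters and not evidence of binding.

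Growth arrest and early response genes had members that rose and none called lower. Among 41 growth arrest and BCL2 family genes 6 rose and 0 fell (3 rose without KD replicate 3; 3 were lower at an unadjusted p under 0.05 and 0 by DESeq2). The apoptosis-enhancing nuclease AEN rose by 0.29 and BCL2L13, a mitochondrial BCL2 relative, by 0.27 on the log2 scale. Among 27 immediate early genes, the first to respond to growth signals, 5 rose and 0 fell, and 26 of 27 had a positive fold change (median 0.206); 0 were lower at an unadjusted p under 0.05 or by DESeq2. The count was 2 without KD replicate 3 or WT replicate 6, and 3 without KD replicate 6 or WT replicate 4. FOSL2, an AP-1 subunit, averaged 71.8 ± 4.91 CPM in KD and 56.8 ± 2.88 CPM in WT (SD, n = 4 each; log2 fold change 0.34 ± 0.07, edgeR adjusted p = 0.0005). 

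Cholesterol genes called in the fit of all libraries all rose. Of 35 genes of cholesterol synthesis, uptake and SREBP control, 10 rose and 0 fell, all 10 outside runs (median 0.079). Leaving out a library gave 7 to 10 rises, with 1 member called lower without KD replicate 3 and 2 without KD replicate 5. With all libraries, 4 were lower at an unadjusted p under 0.05, and DESeq2 called 0 lower. ABCA1, which exports cholesterol and answers to sterol-sensing LXR receptors, had 26.4, 25.7, 25.4 and 25.4 CPM in KD, against 18.3, 17.2, 12.3 and 15.02 CPM in WT (log2 fold change 0.72 ± 0.12, edgeR adjusted p = 8.74e-06). MVD, an enzyme of the mevalonate pathway, had 133, 132, 122 and 142 CPM in KD, against 104, 107, 107 and 95.00 CPM in WT (log2 fold change 0.36 ± 0.06, edgeR adjusted p = 7.73e-06). For both, each KD library exceeded each WT library. SREBF1, a sterol-regulated transcription factor, averaged 199 ± 16.00 CPM in KD and 155 ± 10.4 CPM in WT (SD, n = 4 each; log2 fold change 0.36 ± 0.06, edgeR adjusted p = 9.19e-05), and NR1H2, the receptor LXR beta, 128 ± 14.8 CPM in KD and 101 ± 4.10 CPM in WT (SD, n = 4 each; log2 fold change 0.34 ± 0.06, edgeR adjusted p = 0.00012). DHCR7 and FDPS, enzymes of the pathway, each rose by 0.22 on the log2 scale.

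The promoters of MVD (minus strand, chr16:88663042-88663341) and ABCA1 (minus strand, chr9:104928106-104928405) are shown for the motif CACCCCA, a part of the sterol element bound by SREBP factors. Capitals mark it, read as TGGGGTG where it lies on the other strand.
MVD promoter: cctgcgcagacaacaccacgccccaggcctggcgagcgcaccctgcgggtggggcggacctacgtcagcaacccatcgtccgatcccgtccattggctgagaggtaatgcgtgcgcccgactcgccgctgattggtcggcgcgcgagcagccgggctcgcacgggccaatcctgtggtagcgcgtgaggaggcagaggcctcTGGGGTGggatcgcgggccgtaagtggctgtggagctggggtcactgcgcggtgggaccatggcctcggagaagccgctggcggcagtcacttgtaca
ABCA1 promoter: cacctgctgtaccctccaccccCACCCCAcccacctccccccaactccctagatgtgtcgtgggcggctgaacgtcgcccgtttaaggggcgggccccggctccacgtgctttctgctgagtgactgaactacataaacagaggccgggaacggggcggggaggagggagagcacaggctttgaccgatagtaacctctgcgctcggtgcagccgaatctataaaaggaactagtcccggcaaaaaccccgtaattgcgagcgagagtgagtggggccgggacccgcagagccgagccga
The motif was in 5 of 27 cholesterol gene promoters (18.5%), 3 of the 9 of called members, 7.37% of promoters of genes tested and 7.91% of all promoters.

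Lipid handling beyond cholesterol was mixed. Of 41 genes of lipid uptake, storage and lipolysis 3 rose and 6 fell, 2 and 4 of them outside runs. Beside CD36, LPIN1, which makes diacylglycerol, averaged 134 ± 9.90 CPM in KD and 113 ± 3.26 CPM in WT (SD, n = 4 each; log2 fold change 0.25 ± 0.05, edgeR adjusted p = 0.00127). GPAM, the first enzyme of glycerolipid synthesis, averaged 54.4 ± 5.14 CPM in KD and 71.5 ± 4.08 CPM in WT (SD, n = 4 each; log2 fold change -0.40 ± 0.07, edgeR adjusted p = 3.86e-05), and the lipoprotein receptors LRP1 and LRP8 had log2 fold changes of -0.42 and -0.84. SOAT1, which stores cholesterol as ester and lies in the 1q run, averaged 596 ± 13.98 CPM in KD and 727 ± 17.3 CPM in WT (SD, n = 4 each; log2 fold change -0.29 ± 0.04, edgeR adjusted p = 2.13e-08). Among 54 genes of fatty acid synthesis, elongation and oxidation 3 rose and 8 fell. The falls numbered 5 without KD replicate 3 or 6 or without WT replicate 3, 4 or 6, and the rises 1 without WT replicate 6 and 5 without KD replicate 5. SCD, the stearoyl-CoA desaturase, averaged 1415 ± 47.5 CPM in KD and 1266 ± 57.1 CPM in WT (SD, n = 4 each; log2 fold change 0.16 ± 0.03, edgeR adjusted p = 0.000637), and DECR1, of the breakdown of unsaturated fatty acids, 60.96 ± 6.71 CPM in KD and 76.7 ± 4.86 CPM in WT (SD, n = 4 each; log2 fold change -0.33 ± 0.07, edgeR adjusted p = 0.00135). 

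In the steroid pathway CYP17A1 and 4 other genes fell, and HSD3B2 rose. Of 25 genes tested 2 rose and 5 fell, 2 and 4 of them outside runs, with a class median of -0.008. CYP17A1, which opens the route to cortisol and androgens, had 30.5, 30.2, 25.7 and 25.3 CPM in KD, against 51.9, 43.6, 46.7 and 48.9 CPM in WT (log2 fold change -0.77 ± 0.09, edgeR adjusted p = 6.30e-09). HSD3B2, which turns pregnenolone into progesterone and has the near-identical copy HSD3B1, had 18.4, 19.1, 17.2 and 21.3 CPM in KD, against 11.9, 7.08, 10.3 and 8.92 CPM in WT (log2 fold change 0.99 ± 0.14, edgeR adjusted p = 4.42e-07). The libraries of the 2 groups did not overlap for either enzyme. AKR1C3, which makes active androgens, averaged 63.9 ± 1.70 CPM in KD and 47.3 ± 3.19 CPM in WT (SD, n = 4 each; log2 fold change 0.43 ± 0.07, edgeR adjusted p = 2.06e-05). PAPSS2 and SULT2A1, which together sulphate DHEA, had log2 fold changes of -0.55 and -0.37, and FDX1, the electron carrier of the mitochondrial enzymes, of -0.34. CYP11A1, of the first step, averaged 251 ± 13.8 CPM in KD and 268 ± 10.4 CPM in WT (SD, n = 4 each) and CYP21A2, a 21-hydroxylase with a near-identical pseudogene, 108 ± 4.24 CPM in KD and 114 ± 9.69 CPM in WT (SD, n = 4 each); neither was called (edgeR adjusted p = 0.197 and 0.446). Among 25 adrenocortical transcription factors 1 rose and 1 fell, and among 28 hormone receptor and cAMP genes 1 rose and 2 fell. The angiotensin receptor AGTR1 averaged 141 ± 3.58 CPM in KD and 166 ± 3.90 CPM in WT (SD, n = 4 each; log2 fold change -0.23 ± 0.05, edgeR adjusted p = 0.000868), and the phosphodiesterase PDE2A 407 ± 22.4 CPM in KD and 353 ± 3.18 CPM in WT (SD, n = 4 each; log2 fold change 0.20 ± 0.04, edgeR adjusted p = 0.000315).

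BMP and Wnt signalling genes included clear changes in ligands and inhibitors. Of 44 BMP, activin and TGF-beta genes 8 rose and 6 fell, 8 and 3 of them outside runs. BMP4, a ligand, had 203, 179.6, 177 and 202 CPM in KD, against 118, 124, 118 and 114 CPM in WT (log2 fold change 0.68 ± 0.05, edgeR adjusted p = 2.10e-14). ID3, a classic target of BMP receptors, had 17.6, 15.3, 16.3 and 18.2 CPM in KD, against 10.9, 11.00, 8.20 and 9.36 CPM in WT (log2 fold change 0.78 ± 0.14, edgeR adjusted p = 6.12e-05). KD exceeded WT in every library for both genes. The inhibitors FST, a trap for activins, and SMAD6, which blocks BMP receptors, rose by 0.54 and 0.50 on the log2 scale, and TGFBR1, the type I TGF-beta receptor, averaged 151 ± 9.99 CPM in KD and 186 ± 6.18 CPM in WT (SD, n = 4 each; log2 fold change -0.30 ± 0.05, edgeR adjusted p = 2.33e-05). The rises numbered 5 without KD replicate 6 or WT replicate 3 or 5, and the falls 3 without WT replicate 5 or 6. Of 41 Wnt ligands, receptors and inhibitors 6 rose and 5 fell, 5 and 3 of them outside runs, and 3 fell with library sizes alone. LGR5, a receptor that strengthens Wnt signals, had 24.3, 28.9, 31.2 and 21.03 CPM in KD, against 12.8, 15.2, 14.1 and 17.1 CPM in WT (log2 fold change 0.84 ± 0.12, edgeR adjusted p = 1.41e-06). WNT4, a ligand of the adrenal cortex, averaged 139 ± 8.84 CPM in KD and 167 ± 4.99 CPM in WT (SD, n = 4 each; log2 fold change -0.27 ± 0.05, edgeR adjusted p = 0.00015). The inhibitor DKK1, the co-receptor LRP5 and the target AXIN2 rose by 1.02, 0.34 and 0.26 on the log2 scale. 

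Notch genes were called in both directions. Of 30 receptors, ligands and targets 2 rose and 2 fell, 1 and 2 of them outside runs. The rise inside a run, of a ligand gene in the chromosome 20 run, lost its call without any single library but KD replicate 6, which left 1 rise. NOTCH3 had 8.41, 9.81, 7.44 and 7.04 CPM in KD, against 18.6, 21.6, 17.1 and 19.8 CPM in WT (log2 fold change -1.24 ± 0.16, edgeR adjusted p = 5.64e-08). Every KD library lay below every WT library, and OE cells averaged 7.71 CPM, also below WT. DNER, a Notch ligand of neurons, averaged 51.6 ± 3.31 CPM in KD and 67.4 ± 2.86 CPM in WT (SD, n = 4 each; log2 fold change -0.39 ± 0.07, edgeR adjusted p = 0.000114). HES6, which opposes the repressor HES1, averaged 12.3 ± 1.66 CPM in KD and 7.74 ± 0.570 CPM in WT (SD, n = 4 each; log2 fold change 0.66 ± 0.15, edgeR adjusted p = 0.00234). The direct targets HES1 (8.60 CPM in KD and 8.58 CPM in WT) and HEYL (2.15 CPM in KD and 2.39 CPM in WT) were not called (edgeR adjusted p = 0.994 and 0.83), and neither was the receptor NOTCH1 (edgeR adjusted p = 0.855). Among 47 genes of insulin, IGF and receptor tyrosine kinase signalling 5 rose and 3 fell, and the falls numbered 7 without KD replicate 3 and 5 without WT replicate 4. ETV4, an ETS factor that follows ERK activity, had 10.5, 8.89, 9.92 and 11.9 CPM in KD, against 5.11, 4.97, 3.85 and 4.68 CPM in WT (log2 fold change 1.15 ± 0.18, edgeR adjusted p = 5.01e-06). IRS1, the docking protein of the insulin receptor, averaged 41.1 ± 5.28 CPM in KD and 29.6 ± 2.25 CPM in WT (SD, n = 4 each; log2 fold change 0.47 ± 0.09, edgeR adjusted p = 0.000121). The ligands FGF9 and KITLG rose by 0.83 and 0.69 on the log2 scale. The adaptor GRB14, a relative of GRB10, had a log2 fold change of -0.28.

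**Figure D5:**
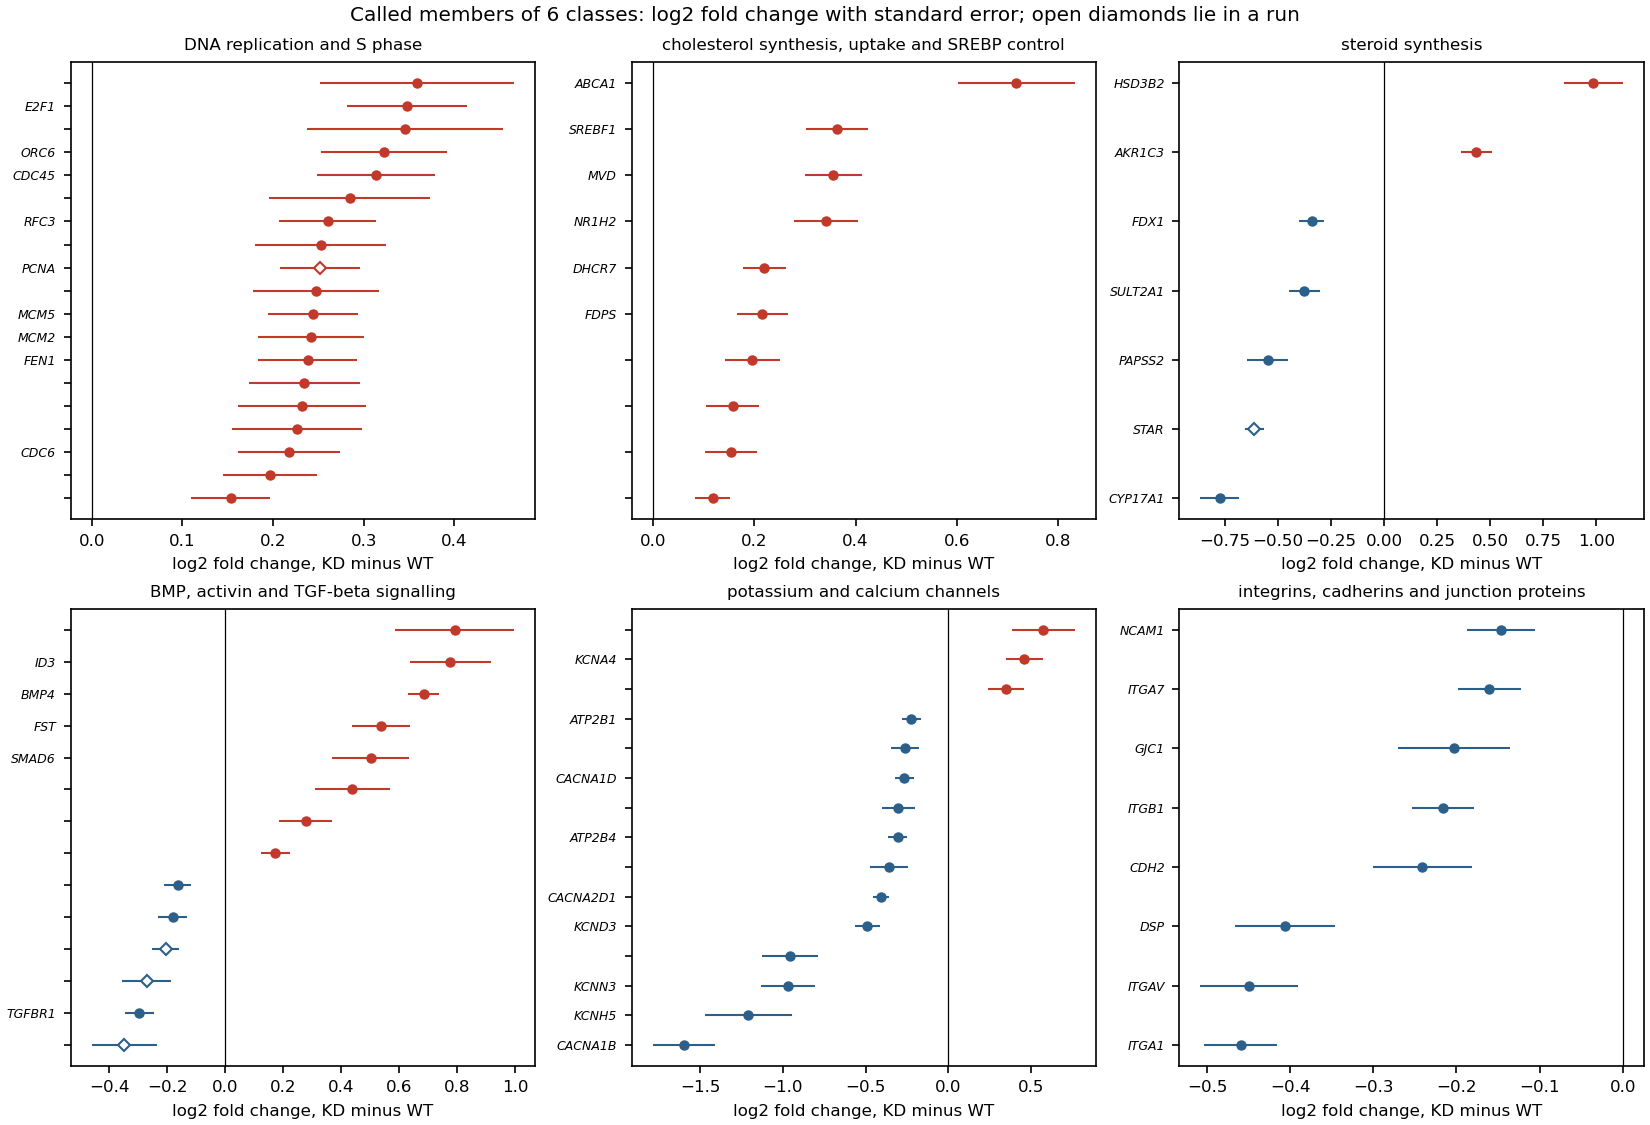
Log2 fold change of KD against WT (x axis, with SE) for each called member of 6 classes; filled points lie outside runs and open diamonds inside them, and the genes described in the text are named. Replication and cholesterol genes are all to the right of 0 and integrins and cadherins all to the left, and the other classes spread to both sides.

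Matrix genes changed in both directions and by large steps. Of 52 genes of interstitial matrix 6 rose and 10 fell, 6 and 8 of them outside runs; the rises numbered 2 without KD replicate 3 or WT replicate 5 and 3 without KD replicate 6. COL6A2, a chain of collagen VI, had 69.9, 57.8, 50.5 and 64.1 CPM in KD, against 166, 161, 144 and 151 CPM in WT (log2 fold change -1.36 ± 0.08, edgeR adjusted p = 2.57e-13). The KD libraries lay far below all WT libraries. FN1 (fibronectin) had 40.2, 40.3, 38.7 and 43.3 CPM in KD, against 15.99, 16.3, 21.01 and 21.5 CPM in WT (log2 fold change 1.12 ± 0.11, edgeR adjusted p = 1.90e-11). SPARC, a secreted matrix binder, averaged 2035 ± 101 CPM in KD and 2406 ± 46.6 CPM in WT (SD, n = 4 each; log2 fold change -0.24 ± 0.03, edgeR adjusted p = 1.82e-07). COL5A2, COL11A1 and TNXB had log2 fold changes of -0.87, -0.35 and -0.74, and the metalloproteinase inhibitors TIMP2 and TIMP3 of -0.33 and -0.19. 

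Basement membrane genes and adhesion receptors were mostly lower where they were called. Of 23 basement membrane genes 1 rose and 5 fell, with a median of -0.108. LAMA2 (laminin alpha 2) had 154, 169, 147 and 160.1 CPM in KD, against 202, 209, 227 and 240.5 CPM in WT (log2 fold change -0.48 ± 0.05, edgeR adjusted p = 1.56e-09). LAMB1 (laminin beta 1) averaged 527 ± 14.9 CPM in KD and 626 ± 17.6 CPM in WT (SD, n = 4 each; log2 fold change -0.25 ± 0.04, edgeR adjusted p = 1.61e-06), and FRAS1 11.6 ± 2.13 CPM in KD and 20.6 ± 5.88 CPM in WT (SD, n = 4 each; log2 fold change -0.82 ± 0.17, edgeR adjusted p = 0.0016). Of 49 integrins, cadherins and junction proteins 0 rose and 8 fell, all outside runs, and 7 or 8 fell when a library was left out (2 were higher at an unadjusted p under 0.05 and 0 by DESeq2). ITGA1, the collagen-binding integrin alpha 1, had 294, 326, 334 and 344 CPM in KD, against 444, 414, 443 and 484 CPM in WT (log2 fold change -0.46 ± 0.04, edgeR adjusted p = 1.74e-11). ITGAV, of the integrins that bind fibronectin and vitronectin, had 84.8, 100.1, 98.4 and 97.3 CPM in KD, against 124, 129.5, 125 and 141 CPM in WT (log2 fold change -0.45 ± 0.06, edgeR adjusted p = 1.04e-07). Both genes were lower in every KD library than in any WT library. ITGB1, their shared beta partner, averaged 517 ± 21.98 CPM in KD and 600.2 ± 13.8 CPM in WT (SD, n = 4 each; log2 fold change -0.22 ± 0.04, edgeR adjusted p = 2.89e-05), and DSP (desmoplakin, of desmosomes) 115 ± 8.41 CPM in KD and 153 ± 13.9 CPM in WT (SD, n = 4 each; log2 fold change -0.41 ± 0.06, edgeR adjusted p = 3.69e-06). The others called were ITGA7, CDH2 (N-cadherin) and NCAM1, at -0.16, -0.24 and -0.15, and GJC1, a gap junction protein, at -0.20. NCAM1 was not called with library sizes alone (edgeR adjusted p = 0.0653), and GJC1 was called without WT replicate 4 but not without any other single library (edgeR adjusted p = 0.0520 to 0.131).

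Guidance receptors and ion channels, genes best known from neurons, were among those that moved. Of 49 axon guidance genes 4 rose and 8 fell, and 5 fell without KD replicate 5. ROBO1, the receptor of SLIT proteins, had 159, 156, 156 and 158 CPM in KD, against 121, 126, 123 and 120.1 CPM in WT (log2 fold change 0.36 ± 0.05, edgeR adjusted p = 4.77e-07). NRP1, a receptor of semaphorins and VEGF, averaged 16.7 ± 2.31 CPM in KD and 26.9 ± 3.05 CPM in WT (SD, n = 4 each; log2 fold change -0.68 ± 0.11, edgeR adjusted p = 1.49e-05). The netrin receptors UNC5B and UNC5C had log2 fold changes of -0.73 and -1.23, and SLIT2 and SEMA7A rose by 0.28 and 0.26. Of 57 genes listed for potassium and calcium channels, a list that also holds calcium pumps, 3 rose and 12 fell, all outside runs, with a median of -0.133. When a library was left out 9 to 14 fell, and 1 rose without WT replicate 3 or 6. KCND3, an A-type potassium channel, had 45.01, 53.4, 42.8 and 44.2 CPM in KD, against 61.8, 63.3, 61.6 and 74.1 CPM in WT (log2 fold change -0.49 ± 0.07, edgeR adjusted p = 3.16e-06). CACNA2D1, the alpha2delta subunit that carries calcium channels to the membrane, averaged 245 ± 24.3 CPM in KD and 324 ± 7.41 CPM in WT (SD, n = 4 each; log2 fold change -0.41 ± 0.05, edgeR adjusted p = 5.77e-08), and KCNN3, a calcium-activated potassium channel, 5.91 ± 1.10 CPM in KD and 11.6 ± 0.725 CPM in WT (SD, n = 4 each; log2 fold change -0.97 ± 0.16, edgeR adjusted p = 2.33e-05). The potassium channel KCNH5, the calcium pumps ATP2B1 and ATP2B4 and the L-type channel CACNA1D had log2 fold changes of -1.21, -0.22, -0.31 and -0.27, and KCNA4 one of 0.46. KCNJ5, the potassium channel mutated in aldosterone-producing adenomas, averaged 174 ± 19.1 CPM in KD and 191 ± 4.90 CPM in WT (SD, n = 4 each) and was not called (log2 fold change -0.13 ± 0.05, edgeR adjusted p = 0.103). Of 33 neuroendocrine granule genes 4 rose and 3 fell: the neuronal pentraxin NPTX1 averaged 61.6 ± 6.96 CPM in KD and 37.1 ± 1.19 CPM in WT (SD, n = 4 each; log2 fold change 0.73 ± 0.08, edgeR adjusted p = 1.08e-09) and its relative NPTX2 248 ± 17.1 CPM in KD and 326 ± 5.81 CPM in WT (SD, n = 4 each; log2 fold change -0.40 ± 0.04, edgeR adjusted p = 1.37e-09).

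Amino acid, sugar and redox genes had members on both sides. Of 67 amino acid and one-carbon genes 8 rose and 5 fell, 7 and 2 of them outside runs. SLC7A8, a carrier of large neutral amino acids, had 235, 235, 215 and 227 CPM in KD, against 156, 169, 158 and 158 CPM in WT (log2 fold change 0.51 ± 0.05, edgeR adjusted p = 4.00e-12). MTHFD2 of the mitochondrial folate cycle, GOT1 and the polyamine enzyme ODC1 rose by 0.30, 0.24 and 0.19 on the log2 scale, and the glutamate carrier SLC1A1 had a log2 fold change of -0.42. Of 38 glycolysis and hypoxia genes 3 rose and 5 fell, and 3 fell without KD replicate 6 or WT replicate 3 or 6. Pyruvate kinase PKM averaged 3361 ± 219.7 CPM in KD and 2943 ± 70.6 CPM in WT (SD, n = 4 each; log2 fold change 0.19 ± 0.03, edgeR adjusted p = 6.01e-05), and the glucose carrier SLC2A3 60.01 ± 4.04 CPM in KD and 77.2 ± 4.40 CPM in WT (SD, n = 4 each; log2 fold change -0.36 ± 0.07, edgeR adjusted p = 7.38e-05). Of 62 glutathione, thioredoxin and detoxification genes 5 rose and 8 fell, but 11 rose and 5 fell with library sizes alone, and the rises numbered 2 without WT replicate 6 and the falls 5 without KD replicate 4 or WT replicate 5. TXNIP, which binds thioredoxin and limits glucose uptake, had 325, 308, 312 and 317 CPM in KD, against 211, 227, 217 and 211 CPM in WT (log2 fold change 0.54 ± 0.04, edgeR adjusted p = 1.82e-14). The metal-binding protein gene MT1E, a member of a family of near-identical metallothionein genes, averaged 50.9 ± 5.02 CPM in KD and 31.5 ± 4.64 CPM in WT (SD, n = 4 each; log2 fold change 0.69 ± 0.09, edgeR adjusted p = 9.31e-08). TFRC, the transferrin receptor that takes up iron, averaged 1509.8 ± 63.1 CPM in KD and 1792 ± 52.6 CPM in WT (SD, n = 4 each; log2 fold change -0.25 ± 0.03, edgeR adjusted p = 3.70e-07). Of 54 lysosome and autophagy genes 5 rose and 10 fell, but 8 rose and 5 fell with library sizes alone. The falls numbered 6 without WT replicate 4, and the rises 3 without KD replicate 6 or WT replicate 4 or 5. 

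Called mitochondrial transcripts were all lower, and they moved with the share of mitochondrial counts given above. All 15 listed messenger and ribosomal RNA genes of the mitochondrial genome had a negative fold change (median -0.321). Of these edgeR called 4 and DESeq2 10 (0 were higher at an unadjusted p under 0.05 or by DESeq2). An edgeR fit without the robust option called 15, and fits with no filter or of the 8 KD and WT libraries alone called 2. Without KD replicate 3, the library with 4.99% of counts on the mitochondrial genome, 12 were called, and without KD replicate 6 or WT replicate 3, 5 or 6, 2 were called. MT-RNR1, the small ribosomal RNA, had 983, 1225, 1207 and 1127 CPM in KD, against 1475, 1322, 1506 and 1433 CPM in WT (log2 fold change -0.34 ± 0.06, edgeR adjusted p = 0.00134). MT-ATP8, an ATP synthase subunit, averaged 100.4 ± 16.9 CPM in KD and 148 ± 10.5 CPM in WT (SD, n = 4 each; log2 fold change -0.56 ± 0.09, edgeR adjusted p = 0.000583). MT-TP, the proline transfer RNA and the other tested gene of that genome, was called too, at 18.1 ± 3.74 CPM in KD and 25.4 ± 3.49 CPM in WT (SD, n = 4 each; log2 fold change -0.49 ± 0.12, edgeR adjusted p = 0.00398). Summed over the 15 listed genes the level was 49352 to 74148 CPM in KD and 78136 to 85152 CPM in WT, with no overlap. The part of the mitochondrial share in other results was not tested. Of 73 nuclear respiratory chain subunits 0 rose and 6 fell, 4 of them outside runs, and the falls numbered 11 without KD replicate 5 and 3 without WT replicate 4 or with library sizes alone, where 2 rose. At an unadjusted p under 0.05, 2 were higher, and DESeq2 called 0 higher. Of 77 mitochondrial ribosomal proteins 1 rose and 2 fell.

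Genes of protein synthesis and folding were called in both directions, and the tRNA synthetases that were called were mostly lower. Of 84 cytosolic ribosomal proteins 6 rose and 2 fell, 11 rose with library sizes alone, and 8 fell without KD replicate 5. RPL4 averaged 1482 ± 63.3 CPM in KD and 1295 ± 20.8 CPM in WT (SD, n = 4 each; log2 fold change 0.20 ± 0.03, edgeR adjusted p = 2.53e-05) and RPLP0 857 ± 27.2 CPM in KD and 747 ± 23.2 CPM in WT (SD, n = 4 each; log2 fold change 0.20 ± 0.04, edgeR adjusted p = 4.95e-05); such genes have many processed pseudogenes. Of 36 aminoacyl-tRNA synthetases 1 rose and 7 fell, 5 of the falls outside runs, and 4 fell without WT replicate 5 or with library sizes alone. Over all 36, 16 had a positive and 20 a negative fold change (median -0.024). AARS1, for alanine, averaged 168 ± 8.84 CPM in KD and 197 ± 5.25 CPM in WT (SD, n = 4 each; log2 fold change -0.23 ± 0.05, edgeR adjusted p = 0.000625), and EPRS1, for glutamate and proline, 2284 ± 102 CPM in KD and 2496 ± 13.9 CPM in WT (SD, n = 4 each; log2 fold change -0.13 ± 0.03, edgeR adjusted p = 0.00492). Of 35 chaperones and unfolded protein response genes 2 rose and 4 fell, with CANX (calnexin) at 925 ± 18.4 CPM in KD and 1047 ± 7.96 CPM in WT (SD, n = 4 each; log2 fold change -0.18 ± 0.03, edgeR adjusted p = 0.000185). The proteasome (1 rose and 1 fell of 36) and the host genes of small nucleolar RNAs (1 rose and 1 fell of 25) had shares of calls below the 9.06% of all genes tested.

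Imprinted genes, a group to which DLK1 belongs but from which it was left out, had more members called lower than called higher, with H19 among the higher. Of 39 tested 2 rose and 8 fell, 2 and 7 outside runs, and 6 to 9 fell when a library was left out. Over all 39, 19 had a positive and 20 a negative fold change (median -0.009). H19, the maternally read non-coding neighbour of IGF2, had 4.39, 3.19, 2.96 and 4.12 CPM in KD, against 0, 0.383, 0.251 and 0.218 CPM in WT (log2 fold change 4.04 ± 0.50, edgeR adjusted p = 2.15e-08). KD libraries held at least 2.96 CPM and WT libraries at most 0.383 CPM. IGF2 averaged 161 ± 23.1 CPM in KD and 141 ± 6.99 CPM in WT (SD, n = 4 each) and was not called (log2 fold change 0.19 ± 0.10, edgeR adjusted p = 0.292). PEG10, a gene derived from a retrotransposon, had 1237, 1195, 1185 and 1155 CPM in KD, against 1432, 1377, 1415 and 1488 CPM in WT (log2 fold change -0.26 ± 0.03, edgeR adjusted p = 5.64e-08). PLAGL1, a zinc finger factor, averaged 345 ± 33.1 CPM in KD and 417 ± 10.05 CPM in WT (SD, n = 4 each; log2 fold change -0.27 ± 0.05, edgeR adjusted p = 2.56e-05). PEG3, SGCE and NLRP2 had log2 fold changes of -0.25, -0.29 and -0.95. 

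Cytoskeletal and chromatin genes were called in both directions. Of 52 cytoskeletal genes 8 rose and 4 fell, 7 and 4 outside runs. TUBA1A, an alpha tubulin, had 576, 509.7, 518 and 542 CPM in KD, against 426, 439, 400.5 and 432 CPM in WT (log2 fold change 0.34 ± 0.04, edgeR adjusted p = 1.45e-08). TAGLN2, an actin-binding protein, averaged 95.2 ± 10.1 CPM in KD and 63.3 ± 6.82 CPM in WT (SD, n = 4 each; log2 fold change 0.59 ± 0.07, edgeR adjusted p = 3.29e-08), and INA, a neuronal intermediate filament, 5.91 ± 0.305 CPM in KD and 11.3 ± 2.12 CPM in WT (SD, n = 4 each; log2 fold change -0.92 ± 0.18, edgeR adjusted p = 0.000236). The intermediate filament genes NES (nestin) and KRT18 rose by 0.68 and 0.89 on the log2 scale. Of 73 chromatin modifiers 3 rose and 8 fell, and 5 fell without WT replicate 6. CBX2, of Polycomb complexes, averaged 73.00 ± 5.02 CPM in KD and 56.7 ± 5.59 CPM in WT (SD, n = 4 each; log2 fold change 0.36 ± 0.07, edgeR adjusted p = 0.0003), and the methyltransferase KMT2A 49.3 ± 6.23 CPM in KD and 64.3 ± 7.13 CPM in WT (SD, n = 4 each; log2 fold change -0.38 ± 0.08, edgeR adjusted p = 0.00113). For KMT2A the libraries of the groups overlapped.

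ZNF, HOX and protocadherin genes had shares of calls below the 9.06% of all genes tested. Of 474 ZNF genes 8 rose and 13 fell; with library sizes alone 15 rose, without WT replicate 3 only 2 rose, and without KD replicate 3 or 6 or WT replicate 5 or 6, 5 rose. The falls numbered 8 without KD replicate 6 or WT replicate 5 or 6. Of 31 HOX genes 0 were called by edgeR and 0 by DESeq2, with 4 higher and 0 lower at an unadjusted p under 0.05. Of 42 protocadherins 0 were called by either tool, with 2 higher and 2 lower at an unadjusted p under 0.05. Levels were low: the HOX genes summed to 401 to 419 CPM in KD and the protocadherins to 209 to 252 CPM. Their log2 fold changes ran from -0.62 to 1.06 and from -1.09 to 0.78, so even large changes could go uncalled there. Solute carriers, glycosyltransferases and ABC transporters had shares above the 9.06% of all genes tested, at 12.6%, 16.0% and 16.1%. Of 223 solute carriers 18 rose and 10 fell, 17 and 7 outside runs; the rises numbered 7 without KD replicate 6, 11 without WT replicate 5 and 9 without WT replicate 6, and the falls 17 without KD replicate 4. The zinc carrier SLC39A10 averaged 84.9 ± 3.27 CPM in KD and 119 ± 3.50 CPM in WT (SD, n = 4 each; log2 fold change -0.49 ± 0.06, edgeR adjusted p = 3.85e-09). Of 81 glycosyltransferases 3 rose and 10 fell, 9 of the falls outside runs, and 6 fell with library sizes alone. ST6GAL1, which adds sialic acid, averaged 83.8 ± 5.65 CPM in KD and 107 ± 4.89 CPM in WT (SD, n = 4 each; log2 fold change -0.36 ± 0.06, edgeR adjusted p = 2.50e-05), and HS2ST1, which sulphates heparan chains, 208 ± 11.1 CPM in KD and 262 ± 19.7 CPM in WT (SD, n = 4 each; log2 fold change -0.33 ± 0.05, edgeR adjusted p = 1.42e-06). Among 49 interferon and antigen presentation genes 1 rose and 2 fell, among 36 kinesins 0 rose and 3 fell (3 were higher at an unadjusted p under 0.05 and 1 by DESeq2), among 82 small GTPase regulators 2 rose and 3 fell, and among 28 replication-dependent histones 0 rose and 2 fell (1 was higher at an unadjusted p under 0.05 and 0 by DESeq2). Of 31 ABC transporters 3 rose, ABCA1 among them, and 2 fell. Without KD replicate 6 or WT replicate 5 or 6, only 1 rose and 1 fell, while 5 rose without KD replicate 5. Non-coding RNAs outside runs with the clearest changes, beside H19 and MIR196A2, were LINC00648, at 4.37 CPM in KD and 1.77 CPM in WT (log2 fold change 1.29 ± 0.29, edgeR adjusted p = 0.0018), BCAN-AS1, at 10.1 CPM in KD and 5.75 CPM in WT (log2 fold change 0.82 ± 0.17, edgeR adjusted p = 0.00069), and MIR99AHG, at 52.1 CPM in KD and 67.8 CPM in WT (log2 fold change -0.38 ± 0.08, edgeR adjusted p = 0.000628).

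Setting KD directly against OE asks whether a gene moved differently with lowered and with raised DLK1; both comparisons with WT share the WT libraries. This contrast called 2200 of 15916 genes, 13.8%. FN1 had 40.2, 40.3, 38.7 and 43.3 CPM in KD and 6.20, 6.97, 8.22 and 7.04 CPM in OE, with the WT libraries between (KD minus OE 2.51 ± 0.12, edgeR adjusted p = 2.80e-23). TNC averaged 3.32 CPM in OE, also under WT (KD minus OE 2.62 ± 0.16, edgeR adjusted p = 1.47e-18). CYP17A1 averaged 48.5 CPM in OE (KD minus OE -0.80 ± 0.09, edgeR adjusted p = 1.37e-09). HSD3B2 averaged 20.9 CPM in OE, also above WT (OE minus WT 1.13 ± 0.14, edgeR adjusted p = 2.08e-08), and KD did not differ from OE beyond the test's threshold (KD minus OE -0.14 ± 0.13, edgeR adjusted p = 0.539). NOTCH3 had 8.41, 9.81, 7.44 and 7.04 CPM in KD and 9.83, 4.56, 8.38 and 8.05 CPM in OE, which was also below WT (OE minus WT -1.32 ± 0.16, edgeR adjusted p = 1.60e-08; KD minus OE 0.09 ± 0.17, edgeR adjusted p = 0.81), and GRB10 averaged 3.29 CPM in OE (OE minus WT -1.97 ± 0.18, edgeR adjusted p = 5.36e-12; KD minus OE 0.49 ± 0.19, edgeR adjusted p = 0.0859). COL6A2 averaged 86.7 CPM in OE, also below every WT library, and was lower in KD than in OE (KD minus OE -0.52 ± 0.08, edgeR adjusted p = 2.86e-05).

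Short motifs of 4 factors were counted on both strands of the same promoter windows, of which 493 belonged to genes that rose, 625 to genes that fell, 11155 to genes tested and 27195 to all genes with a window. No motif of the set holds another. AAGGTCA, the core bound by NR5A1 and other nuclear receptors, was in 2.03% of promoters of genes that rose, 1.44% of those that fell, 2.62% of those of genes tested and 4.00% of all promoters. TGGGAA, the core bound by the Notch effector RBPJ, was in 22.1% of promoters of genes that rose, 20.5% of those that fell, 21.8% of those of genes tested and 24.4% of all. TGACGTC, the cyclic AMP response element, was in 7.10%, 5.28%, 5.58% and 3.63% of the same 4 sets in that order, and CCGGAAG, the ETS core, in 16.2%, 11.4%, 18.5% and 10.6%. Among the genes tested the share of CCGGAAG was lowest in those that fell.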

How the data were processed

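The authors deposited raw counts, whole numbers per gene. The submitters' processing notes name GRCh38, HISAT2 1.03, FastQC, DESeq2 and featureCounts of Subread. The sources used here do not give the strand setting, the annotation release or how reads with several matches were treated, so counts of overlapping genes, antisense genes and close copies are less certain. The table held 60671 genes; ANK2 had blank counts and was left out. So were 3 lines that name no gene, which hold the library totals and text without counts. Coordinates came from GENCODE 29 (58452 genes matched), promoter and microRNA sequences from RefSeq (GRCh38.p14). Between 9303266 and 13058210 counts stood behind each KD or WT library. CPM are counts over TMM-scaled library sizes.

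Testing used edgeR 4.0.16 (R 4.3.3): filterByExpr (minimum count 10, minimum total 15), TMM, a robust fit by quasi-likelihood of the 12 libraries by group (9 residual degrees of freedom, common biological coefficient of variation 7.38%), the contrast KD minus WT, and Benjamini-Hochberg adjustment over 15916 genes. SE are the fold change over the square root of F. The scripts were tested on simulated data. Replicate numbers were not used to pair libraries. Alternatives were other scalings and filters, DESeq2 1.42.0, 8 libraries only, a replicate block, leaving out each library, an adjusted p under 0.01 and other run settings.

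The members, gene lists and run rule were chosen with earlier results of these data known. Named genes are DLK1, and the 10 highest and 10 lowest called protein-coding genes outside runs (mean log2 CPM of at least 0, no overlap), the 8 and 8 largest CPM differences, of each list the 4 smallest adjusted p and the 2 most abundant, the 4 highest and 4 lowest non-coding genes, and the genes in runs farthest from the median or with the smallest p (a choice of these is printed, and some genes are not reported here). Further called class members given by a log2 fold change and the genes given as not called stand outside this rule and were chosen after their values were seen, as were the motifs GCGGGAA and CACCCCA. Some genes stand in more than 1 list.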

Additional observations from a re-analysis of the deposited data

Results flagged for a closer look

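A library far from the other 3 of its group was looked for in 370 sets of 4 values (the named genes, the mitochondrial share, the totals and the runs). It was found in 17, and chance alone flags about 1 set in 20. The number given for each is the gap to the nearest library over the range of the group. KD replicate 3 lay above the other KD libraries for CBX2 (0.864), KCNJ5 (0.865), NES (0.849), ST6GAL1 (0.82901) and TRIB3 (0.905). KD replicate 6 lay above them for CDH2 (0.960) and below them for HOXC6 (0.866). KD replicate 4 was the lowest for ASS1 (0.859) and HSPD1 (0.856), and KD replicate 5 for CYP21A2 (0.867) and LPIN1 (0.843). WT replicate 6 lay above the other WT libraries for KCND3 (0.862) and LAMB1 (0.836) and below them for SPARC (0.862). WT replicate 4 was the highest for NLRP2 (0.917) and SLC7A8 (0.835), and WT replicate 3 the lowest for LPL (0.915). The calls of the genes called among these, in the fit of all libraries, held without each single library in turn.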

How the results depend on the processing

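Depth and 4 libraries a group limit how small a change can be called. With library sizes alone the genes called higher numbered 967, and the runs 29 with 1758 genes. Leaving out each library in turn gave 407 to 725 genes called higher and 614 to 832 called lower, 372 to 618 and 437 to 603 of them outside runs, 868 to 1596 genes in 7 to 23 runs, and a DLK1 log2 fold change of -1.05 to -0.96. WT replicate 6 set the lowest count of genes called higher and KD replicate 5 the highest number of runs. At an adjusted p under 0.01 the edgeR test called 302 higher and 482 lower, 270 and 325 of them outside runs. A window of 21 genes gave 33 runs with 1543 genes, a median threshold of 0.10 gave 66 runs with 3892 genes, and one of 0.20 gave 5 runs; the cause was not tested. DESeq2 called 672 higher and 911 lower, and a fit of the 8 libraries 518 and 748.

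The replicate number as a block gave 557 genes higher and 770 lower, 498 and 556 of them outside runs, and a DLK1 log2 fold change of -1.001. Libraries with the same number did not clearly deviate together (correlations of 0.114, -0.073, 0.010 and -0.037 for numbers 3 to 6). Pairings of unlike numbers gave -0.147 to 0.113. With so few pairs this cannot show whether libraries of the same number share a culture or a batch. Of 286 called genes that the rule or the text names besides DLK1, 217 kept their call without each library in turn, 69 lost it without at least 1, 15 lost it with the block and 16 with library sizes alone, and 0 changed direction.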
